A study of Homo sapiens with 16 samples.

Results

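The transcription factors SOX10, SOX9, SOX2, SOX4, SOX5, SOX6, SOX11, PAX3, TFAP2A and TFAP2B were followed in BRAF inhibitor-resistant melanoma cells given the CoREST inhibitor corin. They were chosen by gene symbol as factors of the neural crest lineage, and all 10 were found among the 34228 genes of the count table. The cells were 451Lu-R, a melanocytic line with high MITF and low AXL, and 1205Lu-R, an invasive line with low MITF and high AXL. Each was derived from its parent line by exposure to rising doses of the BRAF inhibitor PLX4032 and was maintained in PLX4032, so resistance is shared by all groups. The labels of these libraries name no PLX4032, and whether it was withdrawn during the treatment is not given in the sources used here. Cells received 2.5 μM corin, a dual inhibitor of the LSD1 demethylase and the histone deacetylases of the CoREST repressor complex, or the vehicle DMSO, for 24 h. PolyA RNA was sequenced from 2 libraries for each of the 4 groups (451Lu-R with DMSO, 451Lu-R with corin, 1205Lu-R with DMSO and 1205Lu-R with corin). Neither the labels nor the methods used here say whether the 2 libraries of a group came from separate cultures, so p-values measure the spread between libraries, which may be technical. Each phenotype is represented by 1 line, and in bulk RNA a smaller share of expressing cells and less RNA per cell cannot be told apart.

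SOX proteins bind DNA through an HMG box. SOX9 and SOX10 (the SoxE group) specify and maintain neural crest derivatives, and SOX10 with PAX3, a paired-box factor, activates MITF and other pigment cell genes. SOX5 and SOX6 (SoxD) carry no activation domain of their own and modulate SoxE activity, SOX4 and SOX11 (SoxC) act in neuronal and mesenchymal progenitors, and SOX2 (SoxB1) maintains neural and pluripotent stem cells. TFAP2A and TFAP2B are AP-2 factors that induce the neural crest, and TFAP2A also acts with MITF in melanocytes. In melanoma, SOX10 is characteristic of melanocytic cells, and SOX9 is often high in cells that have lost SOX10.

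The libraries held between 9516687 and 11797788 estimated counts. Levels are given as CPM, counts scaled to the library size after TMM normalization, and 3 counts, taken as the floor of a library, corresponded to 0.263 to 0.310 CPM. The phenotypes of the lines were checked with marker genes. The summed level of 7 melanocytic markers (MITF, PMEL, MLANA, TYR, DCT, TYRP1 and S100B) was 12302 to 12330 CPM in 451Lu-R with DMSO and 8.59 to 8.93 CPM in 1205Lu-R with DMSO, where TYR and TYRP1 were at 0. AXL was at 0 to 0.18 CPM in 451Lu-R and 985 to 1012 CPM in 1205Lu-R with DMSO. With corin, the melanocytic sum was 11907 to 11916 CPM in 451Lu-R and 22.7 to 25.9 CPM in 1205Lu-R. In 451Lu-R its members did not all move together. DCT alone was higher with corin, going from 1588 ± 4.05 to 2773 ± 30.2 CPM (SD, n = 2). MITF went from 755 ± 11.8 to 297 ± 1.37 CPM, MLANA from 1105 ± 24.8 to 692 ± 5.17 CPM and PMEL from 8034 ± 16.9 to 7490 ± 37.5 CPM. TYR, TYRP1 and S100B were also lower. AXL was at 2.38 to 2.55 CPM in 451Lu-R and 459.9 to 468 CPM in 1205Lu-R with corin. Markers of leukocytes summed to at most 1.67 CPM and markers of epithelium to at most 6.34 CPM in any library. Endothelial markers summed to 1.28 to 27.0 CPM over the libraries. Fibroblast markers summed to 48.0 to 51.6 CPM with DMSO and 158 to 162 CPM with corin in 451Lu-R, against 204 to 204.6 and 98.9 to 101.4 CPM in 1205Lu-R, and their part in the results was not tested.

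All 10 genes are protein-coding, and their positions are given on GRCh38. SOX10 (ENSG00000100146.17) lies at chr22:37970686-37987422 on the minus strand, SOX9 (ENSG00000125398.8) at chr17:72121020-72126416 on the plus strand and SOX2 (ENSG00000181449.4) at chr3:181711925-181714436 on the plus strand. SOX4 (ENSG00000124766.7) lies at chr6:21593751-21598619 on the plus strand and SOX11 (ENSG00000176887.7) at chr2:5692384-5701385 on the plus strand. SOX5 (ENSG00000134532.18) spans chr12:23529504-24562544 and SOX6 (ENSG00000110693.18) spans chr11:15966449-16739591, both on the minus strand. PAX3 (ENSG00000135903.19) lies at chr2:222199887-222298998 and TFAP2A (ENSG00000137203.12) at chr6:10393186-10419659, both on the minus strand, with TFAP2B (ENSG00000008196.13) at chr6:50818723-50847619 on the plus strand.
Promoter sequences were taken from RefSeq (GRCh38.p14) for the 7 genes with an entry, SOX2, SOX4, SOX5, SOX6, PAX3, TFAP2A and TFAP2B, which gave 12 start sites, 5 of SOX6 and 2 of TFAP2A. The 250 bases before each start were searched on both strands for the AP-2 letters GCCNNNGGC, the SOX letters AACAAT or ACAAAG, the E-box CACCTG of SNAI and ZEB proteins, and a paired homeodomain site, TAAT and ATTA with 2 or 3 bases between them. The windows of SOX2, SOX4 and the most upstream start of SOX6 are shown because these were the 3 genes that moved in the same direction in both lines, with matches in capitals. The SOX5 window is shown as that of a gene that moved in opposite directions.
SOX2 promoter, chr3:181711675-181711924, plus strand: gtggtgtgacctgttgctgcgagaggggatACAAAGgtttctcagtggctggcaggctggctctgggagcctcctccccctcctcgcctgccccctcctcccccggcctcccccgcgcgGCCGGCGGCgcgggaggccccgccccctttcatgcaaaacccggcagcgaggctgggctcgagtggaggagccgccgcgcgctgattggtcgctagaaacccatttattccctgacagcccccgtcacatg
SOX4 promoter, chr6:21593501-21593750, plus strand: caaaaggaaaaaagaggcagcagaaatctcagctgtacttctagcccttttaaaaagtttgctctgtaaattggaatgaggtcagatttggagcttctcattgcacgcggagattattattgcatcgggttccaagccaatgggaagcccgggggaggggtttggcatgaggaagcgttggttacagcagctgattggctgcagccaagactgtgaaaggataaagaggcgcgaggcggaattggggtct
SOX6 promoter, chr11:16738478-16738727, minus strand: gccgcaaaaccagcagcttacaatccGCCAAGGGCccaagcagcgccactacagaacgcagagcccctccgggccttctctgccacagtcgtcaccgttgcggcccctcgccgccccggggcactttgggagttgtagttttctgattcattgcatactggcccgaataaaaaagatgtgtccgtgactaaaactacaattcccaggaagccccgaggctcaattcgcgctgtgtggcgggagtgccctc
SOX5 promoter, chr12:24562492-24562741, minus strand: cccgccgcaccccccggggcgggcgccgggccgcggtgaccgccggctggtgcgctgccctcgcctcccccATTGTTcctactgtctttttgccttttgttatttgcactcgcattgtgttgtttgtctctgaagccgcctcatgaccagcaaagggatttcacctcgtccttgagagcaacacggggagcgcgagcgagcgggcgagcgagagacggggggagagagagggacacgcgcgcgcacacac
The SOX2 window held 1 AP-2 match, starting at -131 from the start site, and 1 SOX match at -220. The SOX6 window held an AP-2 match at -224, and the SOX5 window held a SOX match, read on the other strand, at -179. SOX letters were also present before 3 of the other SOX6 starts and before TFAP2B, and no motif was found in the windows of SOX4, PAX3 or TFAP2A. No window held the E-box or the paired letters. Over all 35116 promoters of the table, 19.8% held the AP-2 letters, 20.9% the SOX letters, 17.5% the E-box and 0.72% a paired match.

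With DMSO, the lines differed in which SoxE factor they expressed. SOX10 was at 738 and 706 CPM in the 2 libraries of 451Lu-R and had 0 counts in both libraries of 1205Lu-R. SOX9 showed the reverse, with 0 counts in both libraries of 451Lu-R and 325 and 318 CPM in 1205Lu-R. Against the floor of 3 counts in each library, SOX10 was at least 2513-fold lower and SOX9 at least 1153-fold higher in 1205Lu-R. No library of either line with DMSO held counts of both genes.
SOX4, SOX5, SOX6, TFAP2A and PAX3 were also higher in 451Lu-R. SOX4 was at 83.5 and 77.4 CPM in 451Lu-R and 4.32 and 4.98 CPM in 1205Lu-R (log2 fold difference, 1205Lu-R against 451Lu-R, -4.13, 95% interval -4.34 to -3.93, adjusted p = 3.88e-22). SOX6 was at 216 and 212 CPM against 12.7 and 12.2 CPM (-4.12, -4.25 to -4.0, adjusted p = 1.08e-26), and SOX5 at 61.8 and 56.2 CPM against 4.42 and 4.68 CPM (-3.72, -3.94 to -3.49, adjusted p = 2.77e-20). Each of these genes had every 451Lu-R library above every 1205Lu-R library.
TFAP2A followed the same order, at 119 and 120.4 CPM in 451Lu-R and 10.99 and 14.9 CPM in 1205Lu-R (log2 fold difference -3.23, 95% interval -3.39 to -3.07, adjusted p = 4.59e-22). PAX3 differed least of the members tested, at 55.2 CPM in both 451Lu-R libraries and 25.7 and 25.95 CPM in 1205Lu-R (-1.11, -1.26 to -0.97, adjusted p = 2.37e-13). SOX2 was near the floor in 451Lu-R, with 2 and 0 counts, and at 7.61 and 8.0 CPM in 1205Lu-R, a ratio of 84.2 (exact 95% counting interval 22.9 to 701). SOX11 and TFAP2B had 0 counts in all 4 libraries with DMSO.
All 8 members tested differed between the lines with DMSO, 2 higher and 6 lower in 1205Lu-R. Of the 14104 genes tested, 41.0% were higher and 41.5% lower, so most genes differed in 1 direction or the other. The members' median absolute log2 fold difference was 4.13, against 0.79 over all genes tested. SOX9 and SOX2 passed the filter on low counts only through 1205Lu-R, and SOX10 only through 451Lu-R. Each of these could be called in 1 direction only. At a difference of 4-fold or more with an adjusted p under 0.001, which 10.1% of genes passed as higher and 10.6% as lower, SOX9 and SOX2 were higher and SOX10, SOX4, SOX5, SOX6 and TFAP2A lower.

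Levels of different genes were compared per kilobase of exonic length. In 451Lu-R with DMSO, SOX10 was at 149.6 ± 4.73 CPM per kb (SD, n = 2) and made up 73.5% of the summed per-length level of the 10 genes, followed by SOX4 (16.5 ± 0.88), TFAP2A (14.6 ± 0.092), SOX6 (10.7 ± 0.13), PAX3 (6.95 ± 0.0035) and SOX5 (5.23 ± 0.35). In 1205Lu-R with DMSO, SOX9 was at 81.8 ± 1.18 CPM per kb and made up 89.2% of the sum. PAX3 (3.25 ± 0.019), SOX2 (3.11 ± 0.11), TFAP2A (1.58 ± 0.34), SOX4 (0.95 ± 0.095), SOX6 (0.62 ± 0.017) and SOX5 (0.40 ± 0.017) followed.
With corin, the order changed in both lines. In 451Lu-R, SOX10 fell to 50.2 ± 0.52 CPM per kb and SOX4 reached 44.9 ± 1.99, so their shares of the sum were 41.5% and 37.0%. How close the 2 genes came depends on the length used. For SOX10 this was 4826 bases, against 3468 for its longest transcript, and for SOX4 both lengths were 4869 bases. SOX6 moved from rank 4 to rank 8 in 451Lu-R, at 1.25 ± 0.080 CPM per kb. Ranks depend on the length used, which for SOX6 was 20093 bases, against 9304 for its longest transcript. With longest transcripts as lengths, the ranks of SOX6 in 451Lu-R and of SOX4 with DMSO were different. In 1205Lu-R, SOX9 stayed at rank 1 with 77.3 ± 1.41 CPM per kb and 78.1% of the sum, and SOX4 moved from rank 5 to rank 2, at 9.38 ± 0.43 CPM per kb.
Among detected neighbours in these orders, the libraries overlapped only for SOX9 and SOX2 in 451Lu-R with corin and for PAX3 and TFAP2A in 1205Lu-R with corin. The genes are drawn in the plot of per-length levels.

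**Figure D1:**
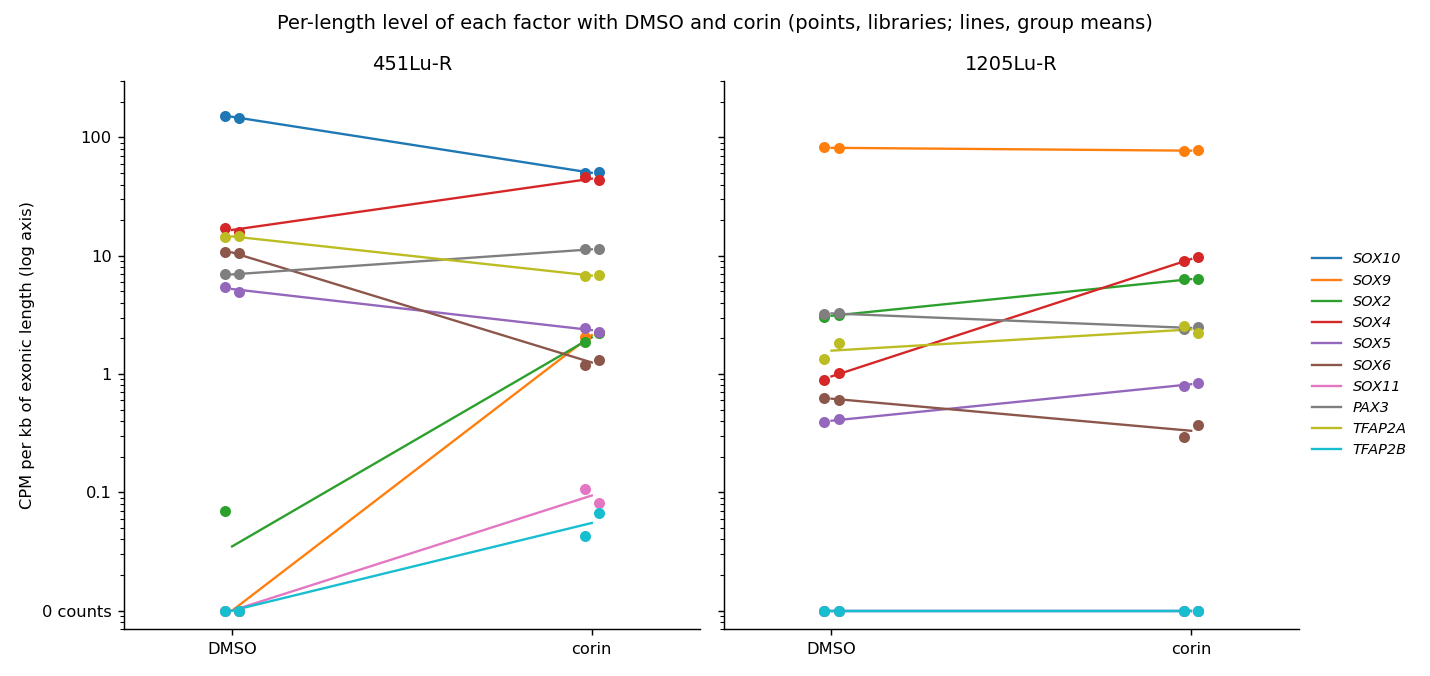
Level of each factor in CPM per kb of exonic length (log axis, with 0 counts drawn at the bottom) for 451Lu-R cells (left panel) and 1205Lu-R cells (right panel) with DMSO and corin. Points are libraries and lines join group means. SOX10 and SOX4 come closer in 451Lu-R with corin, at 50.2 and 44.9 CPM per kb by this length, while SOX9 stays highest in 1205Lu-R at 81.8 and 77.3 CPM per kb.

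Corin treatment of 451Lu-R cells lowered the melanocytic factors SOX10 and TFAP2A and the SoxD genes SOX5 and SOX6, and raised SOX4, PAX3, SOX2 and SOX9. SOX10 went from 738 and 706 CPM to 241 and 244 CPM (log2 fold change -1.60, 95% interval -1.65 to -1.54, adjusted p = 6.75e-21). TFAP2A went from 119 and 120.4 CPM to 54.9 and 56.8 CPM (-1.13, -1.23 to -1.03, adjusted p = 2.70e-14). All corin libraries lay below all DMSO libraries for both genes.
SOX5 and SOX6 fell to different extents. SOX6 went from 216 and 212 CPM to 24.0 and 26.3 CPM, a log2 fold change of -3.12 (95% interval -3.22 to -3.01, adjusted p = 6.61e-21) and the largest fall among the members. Over all genes tested, this change lay at percentile 0.72. SOX5 went from 61.8 and 56.2 CPM to 27.6 and 25.5 CPM (-1.17, -1.33 to -1.01, adjusted p = 2.35e-11).
Of the genes that rose, SOX4 went from 83.5 and 77.4 CPM to 225 and 212 CPM (log2 fold change 1.42, 95% interval 1.33 to 1.51, adjusted p = 1.01e-16). PAX3 went from 55.2 CPM in both libraries to 90.1 and 89.9 CPM (0.68, 0.57 to 0.79, adjusted p = 2.57e-10), in the opposite direction to SOX10. For both genes the corin libraries lay above the DMSO libraries.
Corin also brought up factors that 451Lu-R cells did not express with DMSO. SOX9 went from 0 counts in both libraries to 92 and 84 counts, or 8.10 and 8.69 CPM, which was at least 30.1-fold higher (adjusted p = 5.23e-11). SOX2 went from 2 and 0 counts to 53 and 54 counts, or 4.66 and 5.59 CPM, a ratio of 54.9 with an exact 95% counting interval of 14.8 to 459 (adjusted p = 8.45e-09). The SOX9 level reached with corin remained far under that of 1205Lu-R cells, which was 304 ± 5.56 CPM (SD, n = 2) with the same treatment.
SOX11 had 11 and 7 counts with corin and 0 with DMSO, at least 3.04-fold higher, and TFAP2B had 3 and 4 counts with corin and 0 with DMSO. Both were under the filter on low counts and were not tested. These intervals and floors cover counting error only.
Thus 4 of the 8 members tested rose and 4 fell in 451Lu-R, where 41.3% of the 14530 genes tested rose and 38.6% fell. The median absolute log2 fold change of the 8 was 1.51, against 0.69 over all genes tested. SOX9 and SOX2, which are among the 4 that rose and enter this median, passed the filter on low counts only through the corin libraries. Both could therefore only be called higher. At 4-fold or more with an adjusted p under 0.001, SOX9 and SOX2 rose and SOX6 fell, and 12.4% of genes rose and 2.72% fell at that threshold.
Genes on the opposite strand overlap several members, and whether strand was used in counting is not given in the sources used here. POLR2F, which overlaps SOX10, had 1940 and 1630 counts in the DMSO libraries of 451Lu-R, 1242 and 1077 in its corin libraries, and 445 to 576 in the 1205Lu-R libraries, in which SOX10 had none. C11orf58, which overlaps SOX6, had 1935 and 1656 counts in the DMSO libraries of 451Lu-R and 1107 and 923 in its corin libraries. Their part in the values of SOX10 and SOX6 was not tested.

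**Figure D2:**
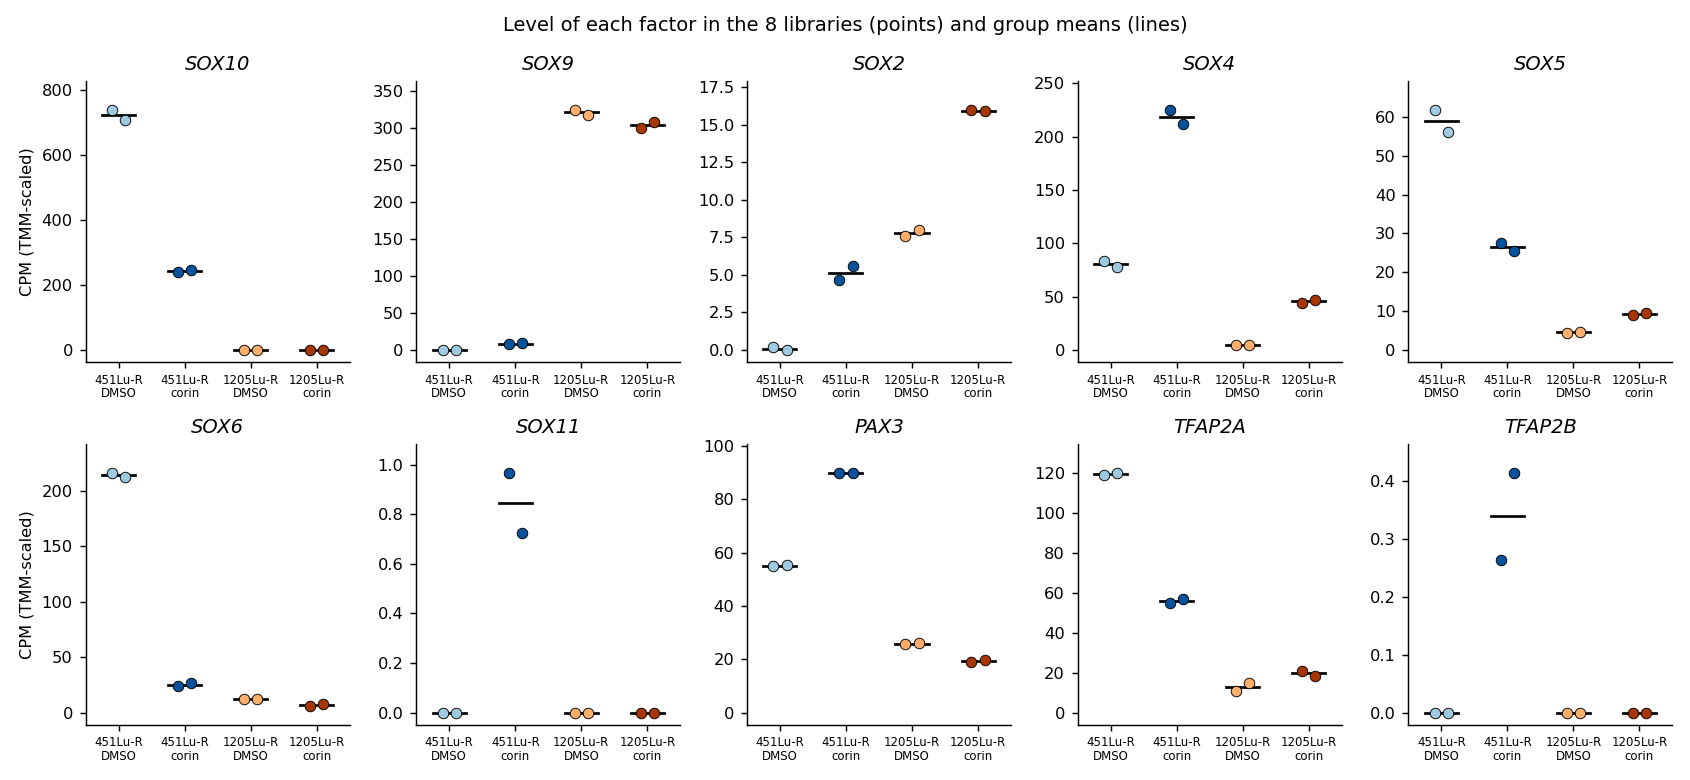
CPM (TMM-scaled, linear axis, a scale for each gene) of each factor in the 8 libraries, with points for libraries and lines for group means of 2 libraries. SOX10 is seen only in 451Lu-R, SOX9 at 300.1 to 325 CPM in 1205Lu-R, and SOX11 and TFAP2B only in 451Lu-R with corin at under 1 CPM.

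In 1205Lu-R cells, corin raised SOX4, SOX2, SOX5 and TFAP2A and lowered SOX6 and PAX3, while SOX10, SOX11 and TFAP2B had 0 counts in all 4 libraries. SOX4 changed most, from 4.32 and 4.98 CPM to 44.2 and 47.2 CPM (log2 fold change 3.31, 95% interval 3.08 to 3.55, adjusted p = 6.24e-17), a 9.94-fold rise. SOX2 went from 7.61 and 8.0 CPM to 16.0 and 15.9 CPM (1.05, 0.77 to 1.32, adjusted p = 2.28e-07). Neither gene had overlapping groups.
SOX9, the most abundant of the factors in this line, was at 325 and 318 CPM with DMSO and 300.1 and 308 CPM with corin. Its corin libraries lay below its DMSO libraries, but the log2 fold change of -0.064 (95% interval -0.13 to 0.00028) did not pass the test (adjusted p = 0.0642). Neither its sign nor its call was stable. It was 0.011 with library totals alone (adjusted p = 0.747), passed as higher with upper-quartile factors (0.075, adjusted p = 0.0313), and passed as lower under 4 other alternatives (-0.11 to -0.078).
SOX5 and SOX6 went in opposite directions. SOX5 rose from 4.42 and 4.68 CPM to 9.02 and 9.49 CPM (log2 fold change 1.04, 95% interval 0.69 to 1.40, adjusted p = 9.96e-06). SOX6 fell from 12.7 and 12.2 CPM to 5.84 and 7.47 CPM (-0.87, -1.18 to -0.56, adjusted p = 1.74e-05). The opposite-strand gene C11orf58 went from 4259 and 4027 counts to 1934 and 2200 counts here too, and its part in the SOX6 value was not tested.
The partners of SOX10 in the melanocytic program changed less. PAX3 fell from 25.7 and 25.95 CPM to 19.1 and 19.9 CPM (log2 fold change -0.39, 95% interval -0.58 to -0.20, adjusted p = 0.000577). TFAP2A rose from 10.99 and 14.9 CPM to 21.02 and 18.2 CPM (0.61, 0.34 to 0.88, adjusted p = 0.000254), and the change was 0.39 without DMSO replicate 1 (adjusted p = 0.0111). The groups did not overlap for either gene.
In all, 4 of the 7 members tested rose and 2 fell in 1205Lu-R, beside 40.4% of the 14563 genes tested that rose and 37.8% that fell. The median absolute log2 fold change of the 7 was 0.87, against 0.63 over all genes tested. SOX4 alone changed by 4-fold or more with an adjusted p under 0.001, a threshold that 11.3% of genes passed upward and 1.43% downward.

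**Figure D3:**
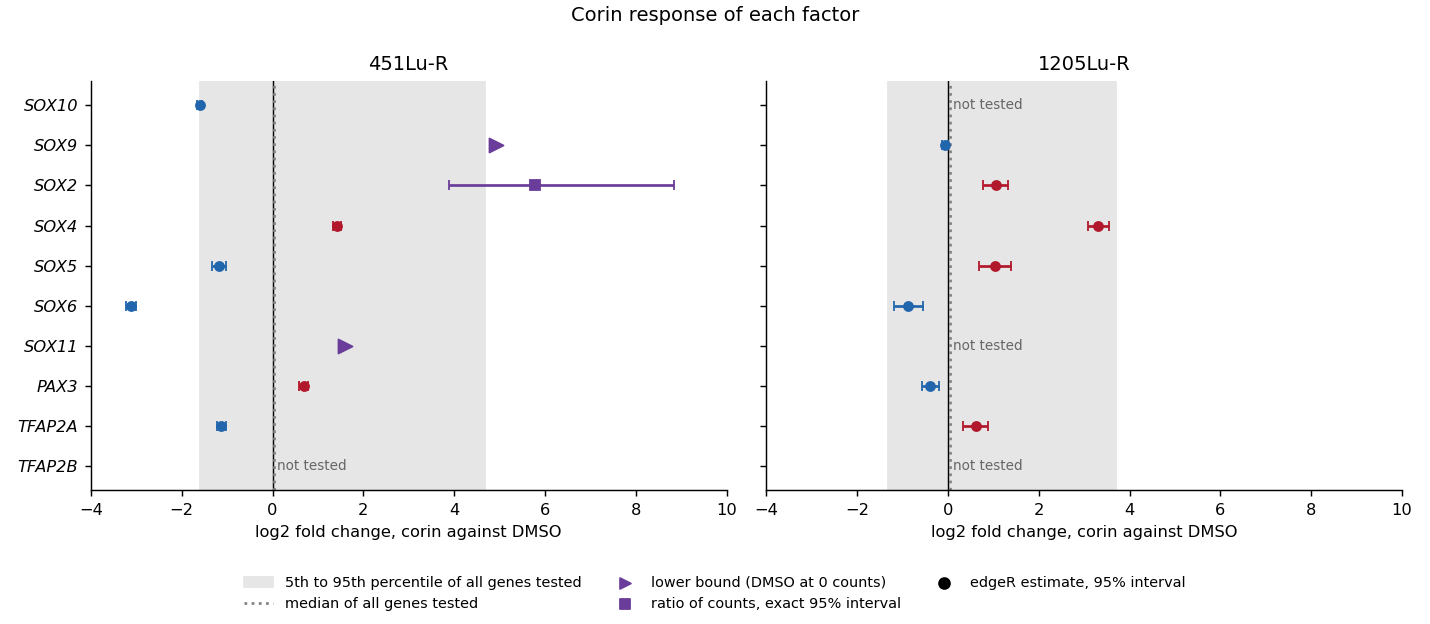
Log2 fold change of each factor, corin against DMSO, for 451Lu-R cells (left panel) and 1205Lu-R cells (right panel). Circles are edgeR estimates with 95% intervals, squares are ratios of summed counts with exact 95% counting intervals, arrowheads are lower bounds where both DMSO libraries had 0 counts, and the grey band spans the 5th to 95th percentile of all genes tested. SOX6 in 451Lu-R, at -3.12, lies below the band.

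The responses to corin were then compared between the lines with an interaction term over all 8 libraries. SOX5, TFAP2A and PAX3 changed in opposite directions. The difference in log2 fold change, 1205Lu-R minus 451Lu-R, was 2.18 for SOX5 (95% interval 1.82 to 2.54, adjusted p = 8.11e-10), 1.70 for TFAP2A (1.42 to 1.97, adjusted p = 5.71e-10) and -1.11 for PAX3 (-1.31 to -0.92, adjusted p = 2.17e-09).
SOX4 and SOX6 moved in the same direction in both lines but by different amounts. The rise of SOX4 was larger in 1205Lu-R by 1.86 on the log2 scale (95% interval 1.56 to 2.15, adjusted p = 3.94e-10). The fall of SOX6 was smaller there, with a difference of 2.21 (1.87 to 2.55, adjusted p = 2.33e-10).
SOX9 and SOX2 also differed (adjusted p = 1.61e-11 and 7.16e-07), as both were at or near 0 in 451Lu-R with DMSO and rose there, while SOX2 rose less and SOX9 did not pass the test in 1205Lu-R. The fitted sizes, -9.55 and -4.58, depend on how that level near 0 is handled. SOX10 could not be compared because 1205Lu-R had no counts of it.
All 7 members tested differed in their response, 4 with a higher and 3 with a lower value in 1205Lu-R, beside 22.6% and 27.1% of the 16062 genes tested. Among the 3 lower, SOX9 and SOX2 were at or near 0 counts in 451Lu-R with DMSO and could only rise there. At a 4-fold difference or more with an adjusted p under 0.001, which 2.43% and 3.13% of genes passed, SOX5 and SOX6 were higher and SOX9 and SOX2 lower. Of the 6 members that passed the test in both lines, SOX4 and SOX2 rose in both, SOX6 fell in both, and 3 (50%) went in opposite directions. Over all genes, 8902 passed in both lines, of which 1332 (15.0%) went in opposite directions.

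With corin, the lines still differed in all members tested, by less than with DMSO for most of them. SOX10 was at 241 and 244 CPM in 451Lu-R and 0 counts in 1205Lu-R, at least 849-fold lower there. SOX9 was higher in 1205Lu-R by 5.18 on the log2 scale (95% interval 5.06 to 5.30, adjusted p = 4.38e-22). SOX2 was higher by 1.64 (1.32 to 1.96, adjusted p = 1.42e-08).
The log2 fold difference, 1205Lu-R against 451Lu-R, was -2.26 for SOX4 (95% interval -2.36 to -2.16), -1.52 for SOX5 (-1.75 to -1.30), -1.90 for SOX6 (-2.17 to -1.63) and -1.52 for TFAP2A (-1.68 to -1.35). Each of these was smaller than with DMSO, by the same interaction term as above. PAX3 went the other way, from -1.11 with DMSO to -2.21 with corin (-2.35 to -2.07, adjusted p = 8.34e-16).
Again all 8 members tested differed between the lines, 2 higher and 6 lower in 1205Lu-R, beside 39.0% and 40.2% of the 15363 genes tested. SOX10 passed the filter on low counts only through 451Lu-R, so it could only be called lower. At 4-fold or more with an adjusted p under 0.001, SOX9 was higher and SOX10, SOX4 and PAX3 were lower, a threshold passed by 8.45% and 8.55% of genes. Setting SOX10 aside, whose difference is a bound in both conditions, 6 of 7 members were closer between the lines with corin than with DMSO. The same held for 7970 of 13610 genes tested in both (58.6%) and for 2291 of the 2717 genes that were 4-fold or more apart with DMSO (84.3%), a group to which most of these members belong.

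**Figure D4:**
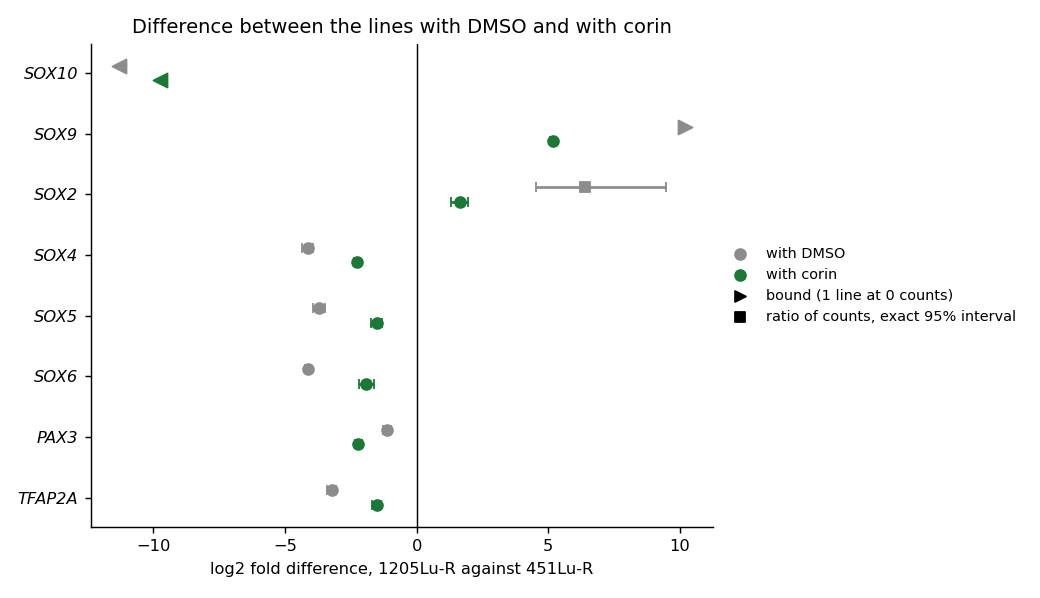
Log2 fold difference of each factor, 1205Lu-R against 451Lu-R, with DMSO (grey) and corin (green). Circles are edgeR estimates with 95% intervals, the square is a ratio of summed counts with its exact 95% counting interval, and arrowheads are bounds where 1 line had 0 counts. PAX3 alone lies farther from 0 with corin, at -2.21 against -1.11 with DMSO.

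Genes related to these factors were described from lists of relatives, targets and partners. With corin, 41.3% of all genes tested rose and 38.6% fell in 451Lu-R, against 40.4% and 37.8% for 1205Lu-R, so a gene that passed the test is no exception in any list. In most lists, some genes had few counts in 1 group and passed the filter on low counts only through the other. Such a gene could be called in 1 direction only. Of the 12 other SOX genes, SOX8, the remaining SoxE gene, rose in both lines, from 8.90 ± 1.05 to 16.0 ± 0.055 CPM in 451Lu-R and from 3.55 ± 0.77 to 16.5 ± 0.27 CPM in 1205Lu-R (SD, n = 2). SOX12, the third SoxC gene, fell in both, from 110.9 ± 2.40 to 43.1 ± 7.71 CPM and from 40.9 ± 3.39 to 12.98 ± 0.52 CPM, while SOX4 rose. SOX13, the third SoxD gene, rose in both, from 45.9 ± 2.89 to 56.2 ± 4.13 CPM and from 17.0 ± 0.72 to 19.9 ± 0.23 CPM. In all, 3 of these genes rose and 1 fell in each line, and the remainder did not pass or were not tested. Among those that rose in 451Lu-R, SOX18 had 1 and 3 counts with DMSO. It passed the filter on low counts only through the corin libraries there, so it could only be called higher.
Of the 11 other PAX and TFAP2 genes, 4 were tested in 451Lu-R, where 3 rose, and 5 in 1205Lu-R, where 3 rose too, and the remainder of those tested did not pass. Among those that rose, PAX1 (1 and 0 counts with DMSO) and PAX2 (3 and 2) in 451Lu-R and PAX5 (1 and 0) in 1205Lu-R were near 0. These passed the filter on low counts only through the corin libraries, so they could only be called higher. TFAP2C, an AP-2 factor of trophoblast and germ cells, rose in 451Lu-R from 9.38 ± 0.61 to 40.4 ± 0.45 CPM, and was at 139 ± 4.55 CPM with DMSO and 130.5 ± 0.41 CPM with corin in 1205Lu-R, where it did not pass the test.
Among 20 neural crest specifiers, 10 were higher and 4 lower with corin in 451Lu-R, against 10 higher and 3 lower for 1205Lu-R. The homeobox gene MSX2 rose in both, from 9.90 ± 0.24 to 52.9 ± 0.47 CPM and from 16.5 ± 0.30 to 73.9 ± 0.098 CPM. SNAI1, a repressor of E-cadherin, also rose in both, from 15.5 ± 0.31 to 77.1 ± 2.27 CPM and from 31.0 ± 2.45 to 191 ± 1.59 CPM. ZIC1 fell in 451Lu-R from 5.44 ± 1.72 to 0.76 ± 0.048 CPM and rose in 1205Lu-R from 12.1 ± 1.07 to 16.4 ± 0.75 CPM. In 451Lu-R, ZIC1 had 9 and 7 counts with corin and passed the filter on low counts only through DMSO libraries, so it could only be called lower. The reverse held for DLX3 in 451Lu-R (5 and 7 counts with DMSO) and DLX5 in 1205Lu-R (1 and 2), for example.
The 16 targets of SOX10 and PAX3 were counted in each line, and the difference between the lines was not tested for the list. In 451Lu-R 5 rose and 9 fell, and the 15 tested had a median of -0.37 on the log2 scale. Among those that rose there, NGFR had 14 and 8 counts with DMSO and RET had 15 and 9. Both passed the filter on low counts only through the corin libraries, so they could only be called higher, and both enter this median. In 1205Lu-R 7 rose and 1 fell, but 7 of the targets were not tested, and EDNRB and ERBB3, with at most 3 counts in each DMSO library, passed the filter on low counts only through the corin libraries, so that no median is given. The median over all genes tested in 451Lu-R was 0.032. ERBB3, a neuregulin receptor, fell in 451Lu-R from 240 ± 1.32 to 25.4 ± 1.61 CPM and rose in 1205Lu-R from 0.24 ± 0.061 to 5.74 ± 0.58 CPM, a line that held no SOX10 counts with either treatment. NGFR, a neural crest stem cell marker, rose in both, from 1.01 ± 0.31 to 364 ± 5.59 CPM in 451Lu-R and from 6.08 ± 0.37 to 197.6 ± 4.71 CPM in 1205Lu-R.
Of 12 cartilage genes activated by SOX9 with SOX5 and SOX6, 2 rose and 5 fell in 451Lu-R, while in 1205Lu-R the 3 that could be tested rose and 9 were not tested. ACAN, the aggrecan gene, had 0 counts with DMSO in 1205Lu-R and was at 11.6 ± 0.32 CPM with corin. It passed the filter on low counts only through the corin libraries, so it could only be called higher. In 451Lu-R the same held for COMP, with 3 and 0 counts with DMSO. The reverse held there for HAPLN1, with 6 counts in each corin library. COL11A2 fell in 451Lu-R from 16.5 ± 0.69 to 5.79 ± 1.02 CPM. MATN3 rose in both lines, from 3.58 ± 0.22 to 8.52 ± 0.64 CPM and from 6.64 ± 0.70 to 12.1 ± 1.72 CPM.
Of the 3 SOX4 and SOX11 targets, TUBB3, a neuronal tubulin, rose in both lines with SOX4, from 186.7 ± 2.12 to 702 ± 2.65 CPM in 451Lu-R and from 412 ± 0.36 to 869 ± 9.84 CPM in 1205Lu-R. TEAD2, a transcription factor of the Hippo pathway, fell in both, from 24.6 ± 2.39 to 4.92 ± 0.51 CPM and from 17.9 ± 0.40 to 3.95 ± 0.50 CPM.
Among 8 AP-2 targets, 2 were higher and 3 lower with corin in 451Lu-R, and 2 were higher and 2 lower in 1205Lu-R. F2R, the thrombin receptor, rose in 451Lu-R from 5.16 ± 0.48 to 84.8 ± 0.59 CPM and fell in 1205Lu-R from 667 ± 0.0011 to 296 ± 8.33 CPM. In both lines F2R changed in the opposite direction to TFAP2A, while MCAM and MMP2 changed in the same direction as TFAP2A. MCAM went from 404 ± 6.56 to 319 ± 15.1 CPM in 451Lu-R. In 1205Lu-R, where its DMSO libraries held 15 and 8 counts, it went from 1.09 ± 0.44 to 41.3 ± 1.57 CPM. There MCAM passed the filter on low counts only through the corin libraries, so it could only be called higher. The same held in 451Lu-R for KRT14, with 3 and 4 counts with DMSO. For MMP2 the levels were 239 ± 8.10 to 181.7 ± 1.09 CPM and 143 ± 2.74 to 157.5 ± 2.95 CPM. ERBB2 fell in both lines, from 35.3 ± 1.19 to 19.3 ± 2.28 CPM and from 55.1 ± 1.60 to 28.4 ± 0.72 CPM.
All 6 partners and repressors of AP-2 factors passed the test in both lines, as most genes did. With corin, 3 were higher and 3 lower in 451Lu-R, against 4 higher and 2 lower for 1205Lu-R. Among the higher genes, CITED4 had few DMSO counts, 3 and 1 for 451Lu-R cells and 8 and 4 for 1205Lu-R cells. CITED1 had 9 and 18 DMSO counts for 1205Lu-R cells, where it was higher. In these cases the filter on low counts was passed only through corin libraries, so only a higher call was possible. The coactivator CITED2 rose from 22.3 ± 0.68 to 158.5 ± 3.41 CPM in 451Lu-R and from 8.28 ± 0.12 to 139 ± 0.51 CPM in 1205Lu-R. KCTD15, an inhibitor of TFAP2A activity, fell from 65.8 ± 6.38 to 6.28 ± 0.046 CPM and from 105.2 ± 1.05 to 10.5 ± 0.99 CPM.
For the remaining lists the median fitted log2 fold change of the genes tested, in 451Lu-R and then 1205Lu-R, was 0.27 and 0.67 for other SOX genes, 2.66 and 1.36 for other PAX and TFAP2 genes, and 0.86 and 0.36 for neural crest specifiers. It was -0.68 and 0.87 for cartilage genes, 1.89 and -0.54 for SOX4 and SOX11 targets, -0.37 and -0.39 for AP-2 targets, and 0.14 and 1.56 for AP-2 partners. Each rests on few genes, and some of these had few counts in 1 group. PAX1 and PAX2 in 451Lu-R and PAX5 and ACAN in 1205Lu-R, for example, were tested only because of their corin libraries. No conclusion is drawn from these medians.

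**Figure D5:**
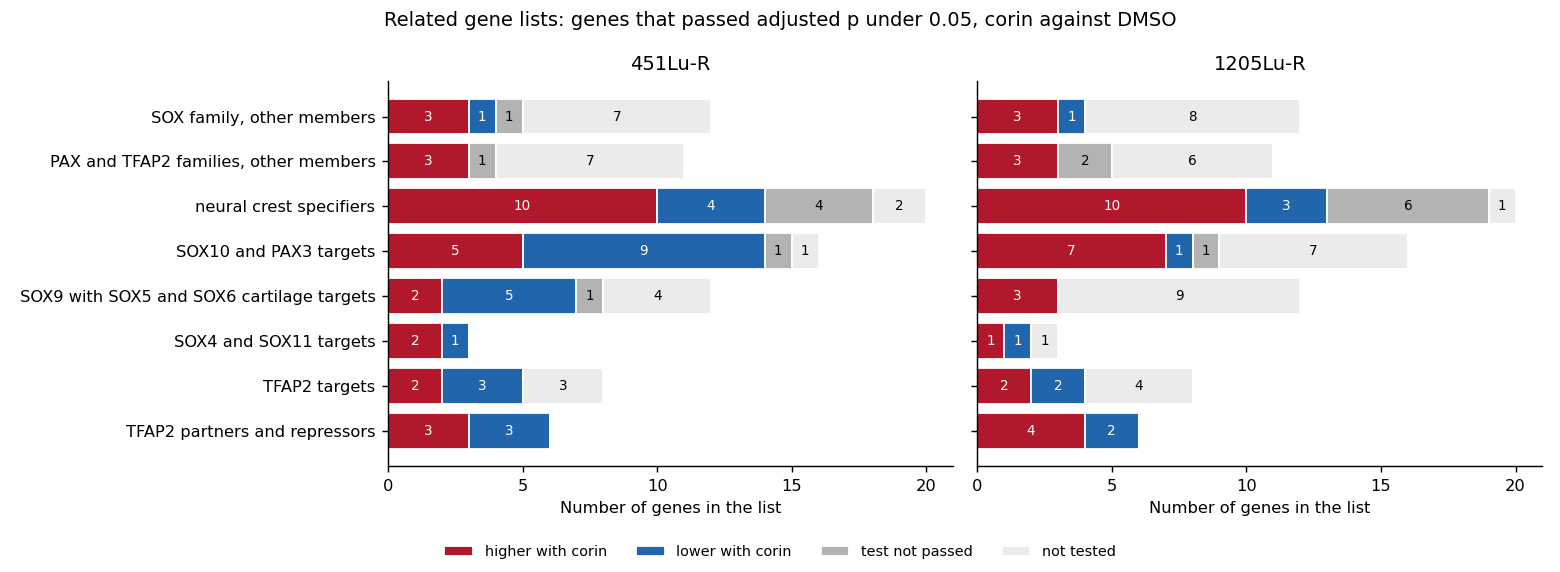
Number of genes of each related list that were higher with corin (red), lower with corin (blue), did not pass the test (grey) or were not tested (light grey) for 451Lu-R cells (left panel) and 1205Lu-R cells (right panel), at an adjusted p under 0.05. The list of SOX10 and PAX3 targets holds 9 lower genes for 451Lu-R and 1 for 1205Lu-R.

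Genes with a pattern close to that of each factor were found by the root mean square difference of centred log2(CPM + 1) values over the 8 libraries, among 14429 genes. Among the closest for SOX10 was TYR (0.44), and the closest were for SOX9 FBN1 (0.47) and FBN2 (0.51), and for SOX2 PRSS12 (0.16) and LIFR (0.18). For SOX4 they were LGI3 (0.24) and NPAS1 (0.27), for SOX5 CARD14 (0.15) and RHOBTB1 (0.15), and for SOX6 CHCHD6 (0.31) and IL17D (0.32). PAX3 was closest to DEPTOR (0.088) and MINDY2 (0.091), and TFAP2A to SLC11A2 (0.16) and RNF144A (0.17). The 8 libraries are 4 groups of 2 libraries that share the difference between the lines, so this likeness is a description only. By Pearson correlation, none of the genes named here was among the closest 2 for its factor.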

How the data were processed

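RNA-Seq was available as 1 table for 8 libraries, 2 for each treatment and line. Reads were trimmed by the authors (trimmomatic) and assigned to GENCODE v32 transcripts (salmon), and the authors deposited estimated counts per gene, without normalization. Tool versions are not given in the sources used here. The authors also deposited log2 fold changes and adjusted p-values for PLX4032 plus corin against PLX4032. These were not used, and the 8 samples with PLX4032 were not analysed here. Of 34228 genes, 34052 were named through GENCODE 44, which gave positions, overlaps and exonic lengths.
Estimated counts were rounded and tested with edgeR 4.0.16 in R 4.3.3 (filterByExpr, TMM, glmQLFit and glmQLFTest, 2-sided, Benjamini-Hochberg over all genes tested). Each comparison used its 4 libraries, and the difference between responses all 8. A gene passed at an adjusted p under 0.05, and 4-fold or more with an adjusted p under 0.001 was the stricter threshold. Groups at 0 counts were compared through a floor of 3 counts per library. Library totals limit precision as given above. The fits were tested on simulated counts.
The members and lists were chosen with earlier results of these data known. All 10 members were named, and of each list the 4 largest changes at most, among genes that passed, with groups that did not overlap and a mean of at least 1 CPM. A few of these are given in the text, and some results are not reported here. No batch or date of sequencing is given in the labels. TFAP2D and CD3E were not analysed here. Alternatives were DESeq2 1.42.0, other scalings and filters, 1 fit for all libraries, a replicate block and leaving out each library.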

Additional observations from a re-analysis of the deposited data

Results flagged for a closer look

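The corin response differed between the lines, by the interaction term of edgeR's quasi-likelihood test with Benjamini-Hochberg adjustment, for 7 factors. The log2 fold change in 1205Lu-R minus that in 451Lu-R was 2.21 for SOX6, 2.18 for SOX5, 1.86 for SOX4, 1.70 for TFAP2A and -1.11 for PAX3. It was -4.58 for SOX2 and -9.55 for SOX9, whose sizes rest on a group at or near 0 counts. In both libraries of each group, SOX5 and TFAP2A moved down in 451Lu-R and up in 1205Lu-R with corin, and PAX3 moved up in 451Lu-R and down in 1205Lu-R.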

How the results depend on the processing

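Of 477 values of members under an alternative, 471 kept their direction and their side of the threshold, 4 newly passed in the same direction and 2 changed sign, of which 1 also passed, and 37 of 38 pairs of member and comparison were the same under each alternative run. The exception was SOX9 with corin in 1205Lu-R, at 0.011 with library totals only (adjusted p = 0.747) and at 0.075 with upper-quartile factors, where it passed as a rise (adjusted p = 0.0313). It passed, as a fall, without a filter (-0.11), with all 8 libraries in 1 fit (-0.078), without DMSO replicate 2 (-0.097) and without corin replicate 2 (-0.087). The cause was not tested. Groups left with 1 library were assumed to vary like the others.
At 4-fold or more and an adjusted p under 0.001, corin gave 1803 higher and 395 lower genes in 451Lu-R, with 2 and 1 members, and for 1205Lu-R cells 1650 and 208 genes, with 1 and 0 members by edgeR. The lines differed in 1429 and 1493 genes with DMSO and in 1298 and 1313 with corin (1 and 3 members). The response differed in 391 and 502 genes, with SOX5 and SOX6 among the higher and SOX9 and SOX2 among the lower. These counts are smaller because the threshold is stricter. Per length of the longest transcript, 3, 3 and 4 members changed rank in 451Lu-R with DMSO, 451Lu-R with corin and 1205Lu-R with DMSO. SOX6 was among them in each of these groups, and SOX4 in both groups with DMSO.
Library totals only shifted the median difference in response by 0.21 and upper-quartile factors by 0.13, and 64.0% and 57.6% of those calls were then higher, against 45.4%. The corin median in 1205Lu-R shifted by 0.14 with upper-quartile factors, and that between the lines with DMSO by -0.11 with library totals. When 1 library was left out, the log2 fold change of SOX2 with corin in 451Lu-R ran from 4.75 to 8.72, its difference between the lines with DMSO from 5.37 to 9.33 and its difference in response from -7.72 to -3.75, since 451Lu-R DMSO replicate 1 held both counts of that group.
Same-numbered libraries did not deviate together (r from -0.093 to 0.046), and the main fits did not pair them. Whether they were prepared together cannot be told from these values. With a replicate block, corin gave 5950 higher and 5550 lower genes in 451Lu-R, and for 1205Lu-R cells 5883 and 5535, and no member's call changed.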
